A study of Solanum pimpinellifolium with 72 samples.

Results

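A set of 48 genes, of 34727 in the table, dipped in young wild-type (WT) floral buds of the wild tomato Solanum pimpinellifolium LA1589 and came back by the next sampled stage. The genes were chosen on the 12 WT libraries alone. A gene was taken where its WT mean of log2(RPKM + 1) was lower by at least 0.7 at 4 days post floral initiation (4dpi) than at the early stage and higher by at least 0.7 at 6dpi than at 4dpi, with a mean of at least 2 RPKM at both ends. RPKM is the number of reads on a gene scaled to its length and to the mapped reads of the library. The WT values are therefore a description with no test. Tests were made in the 5 other genotypes, whose libraries the choice did not use.

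The 72 libraries fall into 18 groups of 4 replicates, 6 genotypes at 3 stages. The lc line carries the cultivated allele of a locus next to SlWUS, the fas line an inversion that reaches the SlCLV3 promoter, and lc/fas both, each introgressed into LA1589 with a stretch of flanking cultivated DNA. RNAi-SlCLV3 carries a hairpin against SlCLV3 under a constitutive promoter (the labels speak of lines and do not say which of the independent transformants a library came from), and HC2 is fas transformed with the SlCLV3 genomic region. All 6 genotypes share the LA1589 background, the greenhouse and the dissection by hand. The early samples joined inflorescence and floral meristems and buds of about 2dpi, and the later samples were buds staged as 4dpi and 6dpi. Replicates were weekly collections from the same few plants of a genotype, so p-values measure the spread between these collections. Inflorescences were pooled within a collection.

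In tomato, a young floral meristem first makes sepals, then petals and stamens, and then spends its stem cells on carpels. The peptide CLAVATA3 and the homeodomain factor WUSCHEL hold each other in balance in that meristem and so set the number of carpels. Gibberellins are kept low in meristems by enzymes that inactivate them, and the walls of an emerging primordium are softened through changes in their pectin. In bulk tissue a lower value can come from fewer cells that use a gene or from less RNA per cell, and these cannot be told apart.

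Markers of the stages were compared first. Averaged over the 5 genotypes, 6 of 6 genes of a list of meristem genes were lower at 4dpi than at the early stage and 8 of 10 of a list of floral organ genes were higher, while MC (-0.53, adjusted p = 6.4e-08), a MADS-box gene of sepals and inflorescence, and FA (-0.42, adjusted p = 6.5e-13), the tomato LEAFY, were lower (limma). SlWUS averaged 32.1, 4.78 and 2.92 RPKM in WT at the early stage, 4dpi and 6dpi, while TAG1, the tomato AGAMOUS, averaged 1.26, 43.1 and 115. The targeted SlCLV3 averaged 3.89 RPKM in RNAi-SlCLV3 at the early stage (2.24 to 4.6), against 7.48 in WT (4.66 to 10.5). At 4dpi it averaged 1.6 RPKM in RNAi-SlCLV3 and 1.36 in WT. The paper proposes that SlCLV3 signal left in the RNAi line came from incomplete silencing or from the hairpin's own transcripts. These values do not separate endogenous from hairpin transcripts. In HC2 the early mean of SlCLV3 was 5.34 RPKM, against 4.98 in fas. Libraries held 2.88 to 57.6 M (mega) reads in genes (median 18.7 M), and 7 of 72 held fewer than 10 M. WT early replicate 3 was the thinnest. Without those 7 libraries 55 genes met the rule, 39 of them shared with the 48.

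Among the 48 genes the WT difference of 4dpi minus early ran from -3.92 to -0.73 (median -1.20) and that of 6dpi minus 4dpi from 0.71 to 3.84 (median 0.98), on the log2(RPKM + 1) scale. Adding 1 makes the change look smaller where RPKM is low. WT means had a median of 8.78 RPKM at the early stage, 2.56 at 4dpi and 6.47 at 6dpi, and the highest early mean was 114 RPKM. At 6dpi 21 genes stood above their early WT mean and 27 below it. Near the threshold, the weaker WT step was 0.713 in Solyc01g067220 and 0.711 in Solyc10g076400, just inside, and 0.699 in Solyc05g018800 and 0.698 in Solyc03g095370, just outside.

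Of the 48 genes, 13 had an Arabidopsis homolog in the study's tables, and the other 35 are given by identifier only. The identifiers place 12 genes on chromosome 2, where the lc segment lies (25% of the 48, against 10.9% of the 20577 genes tested). They place 6 on chromosome 1, 5 each on chromosomes 4 and 5 and 0 on chromosome 11, where the fas segment lies. WT, on which the genes were chosen, carries neither segment. Adjacent identifiers recurred on chromosome 2 (Solyc02g080200, Solyc02g080210 and Solyc02g080220) and on chromosome 5 (Solyc05g046020 and Solyc05g046030). All 48 passed the filter on low values (at least 1 RPKM in at least 4 of the 72 libraries).

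The dip recurred outside WT for 26 to 30 of the 48 genes in 4 of the 5 genotypes and for fewer in RNAi-SlCLV3. Genes called in both steps, that is lower at 4dpi than early and higher at 6dpi than at 4dpi with an adjusted p below 0.05 each (limma, Benjamini-Hochberg over 20577 genes), numbered 26 in lc, 29 in fas, 26 in lc/fas, 14 in RNAi-SlCLV3 and 30 in HC2. Over all tested genes the same call was made for 1.88% in lc, 0.52% in fas, 0.355% in lc/fas, 0.233% in RNAi-SlCLV3 and 1.15% in HC2. In lc, fas, lc/fas and HC2 the counts behind these shares ranged more widely over the fits than the counts among the 48 did. In RNAi-SlCLV3 they did not. There, without replicate 4, the count among the 48 went from 14 to 4 and that over all genes from 48 to 27. In lc the count over all genes was 387. It was 981 with the replicate number as a block within genotype, 221 with median-of-ratios scaling, 191 with quantile normalization and 98 without replicate 2. In HC2 it was 236 genes, and 618, 149 and 132 under the same block and scalings, with 108 without replicate 4. The block gave 221 genes in fas (107 without it), 155 in lc/fas (73) and 93 in RNAi-SlCLV3 (48), and leaving out replicate 4 gave 55, 34 and 27. Libraries of the same replicate number deviated together between WT and the other genotypes, so these libraries repeat WT less than fully independently.

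**Figure D1:**
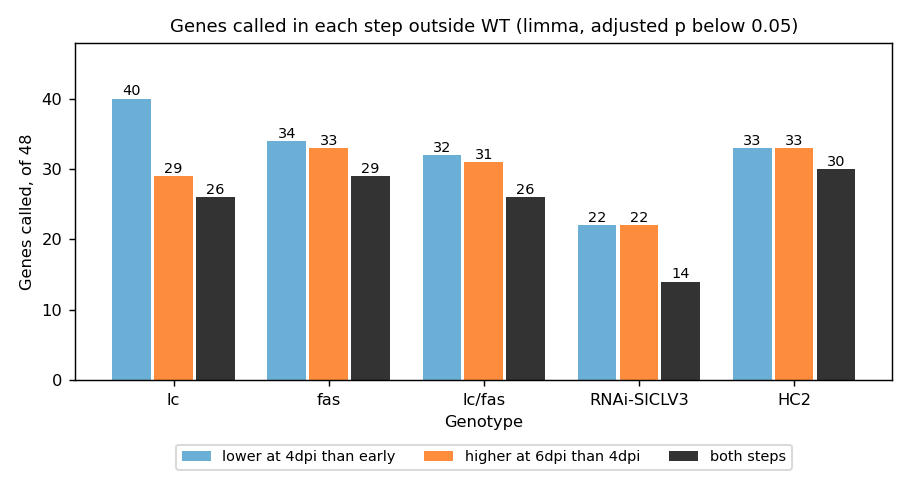
Bars give the number of the 48 genes (y axis) called lower at 4dpi than early, higher at 6dpi than at 4dpi, and in both steps, in each genotype other than WT (x axis). RNAi-SlCLV3 had 14 genes called in both steps, and the other 4 genotypes had 26 to 30.

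The first step alone, lower at 4dpi than early, was called for 40 of the 48 genes in lc, 34 in fas, 32 in lc/fas, 22 in RNAi-SlCLV3 and 33 in HC2. The share of all tested genes called in that direction was 21.7%, 15.6%, 9.36%, 8.6% and 14.5%. The second step alone, higher at 6dpi than at 4dpi, was called for 29 genes in lc, 33 in fas, 31 in lc/fas, 22 in RNAi-SlCLV3 and 33 in HC2. There the share of all tested genes was 8.39%, 5.59%, 4.61%, 3.16% and 7.66%. With the replicate block within genotype 31 of the 48 genes passed the second step in RNAi-SlCLV3 and 25 the first. Over all genes that block gave 2971 second-step calls in lc (1726 without it), 1795 in fas (1150), 1569 in lc/fas (949), 1009 in RNAi-SlCLV3 (651) and 2699 in HC2 (1577), and 4888, 3156, 2749 and 4636 first-step calls in fas, lc/fas, RNAi-SlCLV3 and HC2 (3207, 1926, 1770 and 2992). Median-of-ratios scaling changed the balance of the first step over all genes, to 2546 lower and 3242 higher in lc (4455 and 2647 as deposited), 1789 and 2972 in fas (3207 and 2452), 1380 and 2561 in lc/fas (1926 and 2220) and 1765 and 2725 in HC2 (2992 and 2210). Quantile normalization changed that of the second step, to 1257 lower and 1181 higher in lc (707 and 1726 as deposited), 576 and 868 in fas (357 and 1150), 451 and 753 in lc/fas (272 and 949), 345 and 557 in RNAi-SlCLV3 (250 and 651) and 856 and 1074 in HC2 (435 and 1577). Median-of-ratios scaling gave 1005 and 1483 in lc and 625 and 1292 in HC2 for the second step. The chosen genes called in both steps stayed at 23 to 29 in lc, fas, lc/fas and HC2 and at 11 in RNAi-SlCLV3 under both scalings.

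RNAi-SlCLV3 also had the smallest median steps. The median of the 48 genes for 4dpi minus early was -1.07 in lc, -0.88 in fas, -0.80 in lc/fas, -0.58 in RNAi-SlCLV3 and -0.99 in HC2, and the median over all genes lay between -0.11 and -0.06. For 6dpi minus 4dpi the medians were 0.82, 0.88, 0.82, 0.69 and 0.89, with medians over all genes of 0.00 to 0.06. In plain libraries, the 4 libraries of 4dpi lay below every early and every 6dpi library for 22 genes in lc, 27 in fas, 25 in lc/fas, 16 in RNAi-SlCLV3 and 26 in HC2. Over all tested genes that was so for 1.19%, 1.28%, 0.948%, 0.617% and 1.56%.

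The count in RNAi-SlCLV3 moved with the libraries and the fit, and so did the count over all genes. It was 8, 11, 8 and 4 without replicate 1, 2, 3 and 4 (30, 36, 28 and 27 over all genes, against 48 with every replicate). With the replicate number as a block shared by all genotypes it was 22, and 21 with the block within a genotype (86 and 93 over all genes). Leaving out a replicate gave 20 to 26 genes in lc, 23 to 27 in fas, 18 to 23 in lc/fas and 23 to 28 in HC2. Over all genes that gave 98 to 465, 55 to 77, 34 to 52 and 108 to 183.

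Averaged over the 5 genotypes, 40 of the 48 genes were called in both steps, against 6.78% of all tested genes. Those 1395 genes became 804 with median-of-ratios scaling, 694 with quantile normalization and 599 without replicate 2, where 38 of the 48 were called in each. The average step was -0.89 to 4dpi and 0.82 to 6dpi at the median of the 48 genes. Same-numbered libraries of different genotypes at a stage deviated from their group means together (mean correlation 0.31, above 0.1 in 165 of 180 pairs). The SEs and p-values of all averages over the 5 genotypes take these libraries as independent and can be too small. Calls in both steps came in 5 genotypes for 8 genes, in 4 for 16, in 3 for 5, in 2 for 2, in 1 for 2 and in none for 15. Of the 16 genes called in 4 genotypes, 11 missed the call only in RNAi-SlCLV3. Over all tested genes RNAi-SlCLV3 also had the lowest share of calls in both steps (0.233%, against 0.355% to 1.88% in the others). The tallies by number of genotypes, here and with the blocks, were not made over all tested genes. They therefore cannot be read as particular to the 48. With the replicate block within genotype, 16 genes were called in 5 genotypes and 14 in 4, of which 10 missed only RNAi-SlCLV3, and with the block shared by all genotypes 18 and 9, of which 6.

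**Figure D2:**
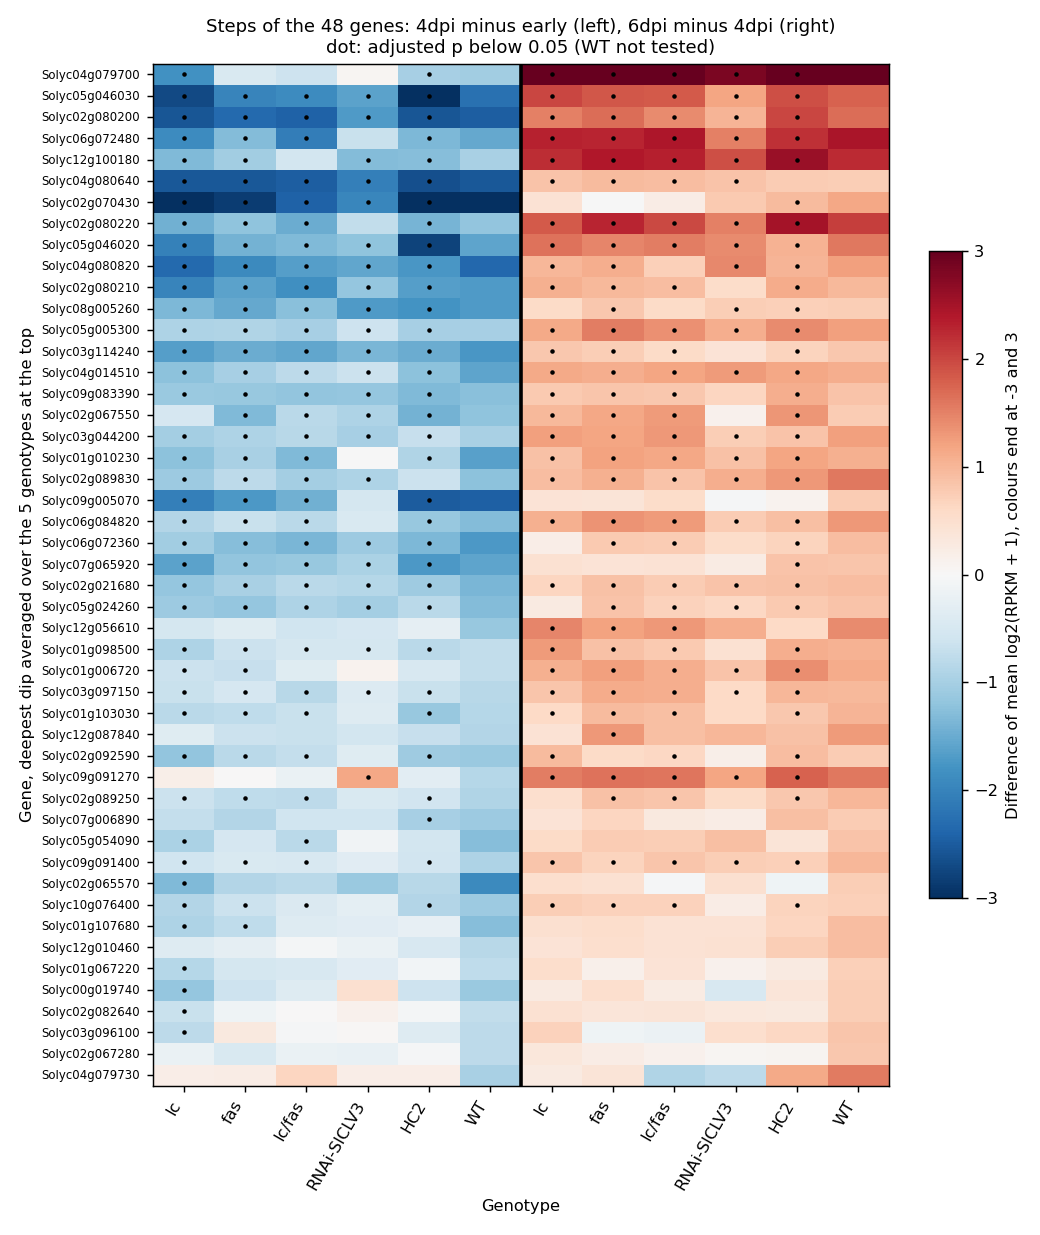
Each row is 1 of the 48 genes and each column a genotype, with 4dpi minus early in the left block and 6dpi minus 4dpi in the right block (colour: difference of mean log2(RPKM + 1)). Black dots mark an adjusted p below 0.05 outside WT. Blue on the left and red on the right recur in most rows of the upper part, and the lowest rows are pale outside WT.

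The 8 genes called in both steps in every one of the 5 genotypes were Solyc02g021680, Solyc02g080200, Solyc03g044200, Solyc03g097150, Solyc04g014510, Solyc05g005300, Solyc05g046020 and Solyc05g046030. Solyc05g005300 and Solyc04g014510, which the study's tables do not annotate, show the pattern at a moderate and a low level. Over the 20 libraries of the 5 genotypes at each stage, Solyc05g005300 ran from 7.48 to 13.5 RPKM at the early stage (median 10.3), from 3.08 to 7.34 at 4dpi (median 5.04) and from 7.21 to 20.3 at 6dpi (median 14.9). The 4dpi libraries lay below the others in each of the 5 genotypes. Its averaged first step was -0.89 (SE 0.09, adjusted p = 1.2e-13) and its second step 1.31 (SE 0.09, adjusted p = 1.2e-19). Solyc04g014510 had medians of 2.90, 1.04 and 3.63 RPKM at the early stage, 4dpi and 6dpi, with steps of -0.98 (SE 0.08, adjusted p = 7.6e-17) and 1.17 (SE 0.08, adjusted p = 2.7e-19). Solyc03g044200 had medians of 2.42, 0.86 and 2.61 RPKM over the same libraries, with steps of -0.90 (SE 0.10) and 1.07 (SE 0.10).

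Pectin methylesterases, wall enzymes that strip methyl groups from pectin and so change how stiff a wall is, were among the annotated genes with large steps both ways. Solyc02g080200 and Solyc02g080220 share the Arabidopsis homolog PMEPCRA, a pectin methylesterase, and Solyc02g080210 lies between them in the order of identifiers. In lc, Solyc02g080200 had 38.5, 51.3, 37.2 and 46.4 RPKM at the early stage, 5.13, 6.78, 7.70 and 6.42 at 4dpi and 20.5, 11.9, 22.6 and 29.5 at 6dpi. In RNAi-SlCLV3 it had 12.3, 21.1, 10.8 and 20.2 RPKM at the early stage, 3.68, 4.37, 3.95 and 4.47 at 4dpi and 10.2, 7.87, 9.31 and 9.94 at 6dpi. In both genotypes the libraries of the 3 stages did not overlap, and those of 6dpi lay between the other stages. In WT it had 19.8, 22.7, 21.9 and 28.2 RPKM at the early stage, 2.62, 2.87, 3.56 and 4.3 at 4dpi and 8.97, 7.54, 15.7 and 23.7 at 6dpi.

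Averaged over the 5 genotypes, Solyc02g080200 fell by 2.31 on the log2 scale to 4dpi (SE 0.13, adjusted p = 4.3e-24) and rose by 1.52 to 6dpi (SE 0.13, adjusted p = 1.4e-15). It stayed lower at 6dpi than at the early stage (-0.79, SE 0.13, adjusted p = 2e-07). Solyc02g080220 fell less, by 1.25 (SE 0.14, adjusted p = 3.7e-11), rose by 2.03 (SE 0.14, adjusted p = 3.1e-18) and ended higher than it began (0.77, SE 0.14, adjusted p = 4.6e-06). Its medians over the 20 libraries of each stage were 11.4, 4.24 and 21.7 RPKM, and its 4dpi libraries lay below the others in all 5 genotypes. In RNAi-SlCLV3 its first step of -0.74 was not called (SE 0.32, adjusted p = 0.10), with 6.18, 9.5, 5.83 and 9.77 RPKM at the early stage and 3.59, 4.61, 3.93 and 4.54 at 4dpi, which do not overlap.

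Solyc02g080210 held 0.369 to 1.41 RPKM at 4dpi (median 0.845), against 2.06 to 8.84 at the early stage (median 4.57) and 1.02 to 5 at 6dpi (median 2.22), in the 20 libraries of each stage. Its low RPKM still came from 55 to 727 reads per library at 4dpi. It fell by 1.65 (SE 0.09, adjusted p = 4.8e-24) and rose by 0.93 (SE 0.09, adjusted p = 4.3e-13). How reads that match several near-identical copies were assigned is not given in the sources used here, so the 3 neighbours cannot be taken as fully separate measurements.

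**Figure D3:**
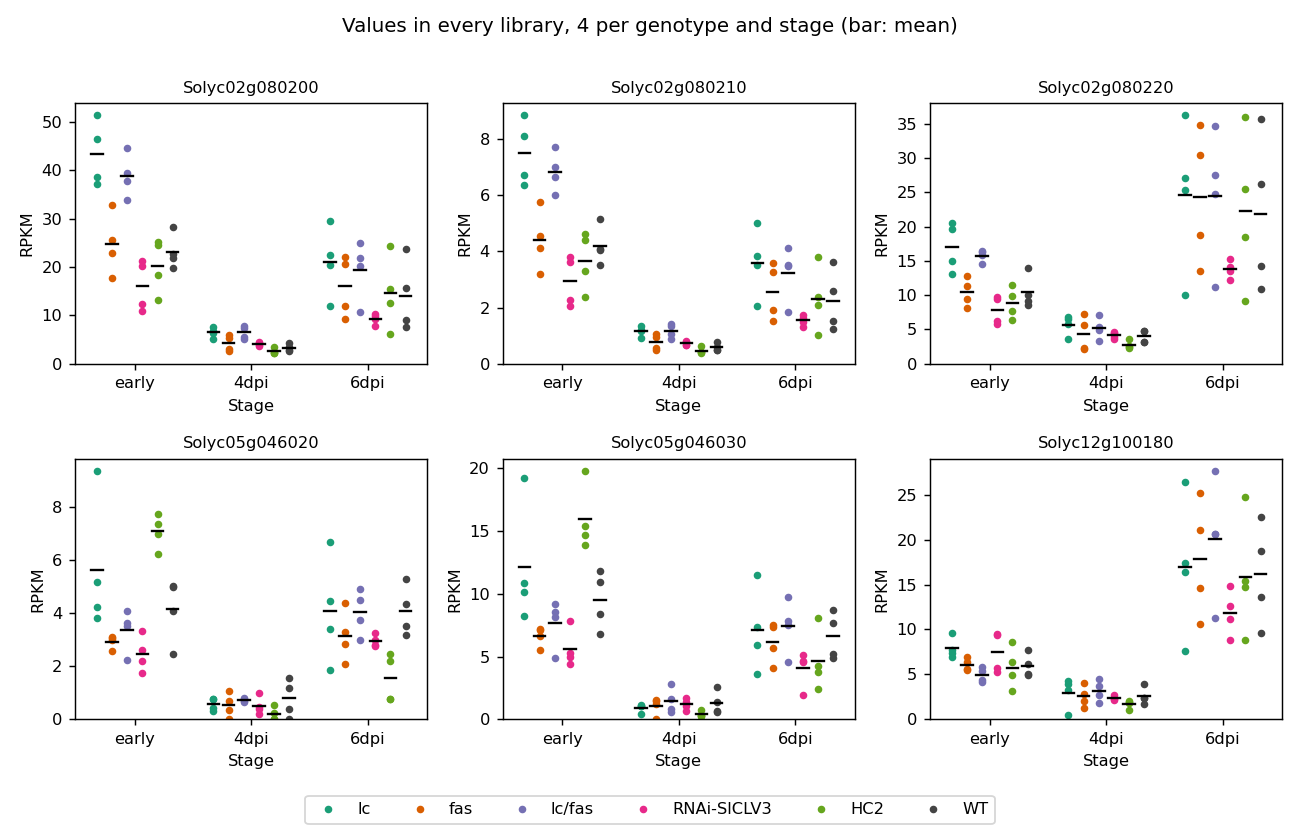
RPKM (y axis, from 0) of 6 genes in every library at the early stage, 4dpi and 6dpi (x axis), 4 points per genotype with the mean as a bar. Solyc02g080200 at 4dpi lay at 2.18 to 7.80 RPKM in the 5 genotypes other than WT, and Solyc12g100180 at 6dpi at 7.59 to 27.7 RPKM.

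Hormone-related genes differed in how far they came back. Solyc02g070430 has the Arabidopsis homolog GA2OX2, a gibberellin 2-oxidase that inactivates gibberellins. At the early stage it had 68.2, 75.1, 55 and 58.0 RPKM in lc, 47.8, 50.1, 41.3 and 46.9 in fas, 39.0, 45.6, 41.3 and 41.0 in lc/fas, 21.9, 33.0, 24.1 and 34.0 in RNAi-SlCLV3, 48.6, 38.7, 55.1 and 64.1 in HC2, and 67.1, 69.9, 52.1 and 61.3 in WT. All libraries of 4dpi lay under 10 RPKM, from 2.53 to 9.48 in the 5 genotypes and from 2.10 to 4.31 in WT. At 6dpi the range was 3.29 to 20 RPKM in the 5 genotypes and 6.15 to 13.8 in WT. Early and later libraries did not overlap in any genotype.

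Averaged over the 5 genotypes, Solyc02g070430 fell by 2.81 (SE 0.12, adjusted p = 2.5e-29), the deepest of the 48 genes, and rose by 0.48 (SE 0.12, adjusted p = 0.0012). At 6dpi it was lower than at the early stage (-2.33, SE 0.12, adjusted p = 8.1e-26). The rise was called within HC2 (0.94, SE 0.27, adjusted p = 0.013) and in none of lc (0.43, adjusted p = 0.31), fas (0.00, adjusted p = 1), lc/fas (0.22, adjusted p = 0.85) and RNAi-SlCLV3 (0.78, adjusted p = 0.086). For this gene the course was a drop with little return, in WT as well, where its means were 62.6, 3.26 and 8.78 RPKM.

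Solyc12g100180 went the other way. Its Arabidopsis homolog PDR12 is an ABC transporter that takes up abscisic acid. In fas it had 6.90, 5.59, 5.45 and 6.37 RPKM at the early stage, 2.07, 1.26, 2.84 and 4.05 at 4dpi and 14.6, 10.6, 21.0 and 25.2 at 6dpi. It fell by 1.10 over the 5 genotypes (SE 0.14, adjusted p = 6.3e-10), rose by 2.29 (SE 0.14, adjusted p = 3.1e-21) and ended above its early level by 1.19 (SE 0.14, adjusted p = 3.6e-11). Both steps were called in every genotype except lc/fas, where the first step was -0.55 (SE 0.31, adjusted p = 0.23) with 4.41, 5.42, 4.12 and 5.81 RPKM at the early stage and 3.66, 1.78, 4.43 and 2.72 at 4dpi.

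Homologs of Arabidopsis transcription factors dipped at low to moderate levels. Solyc02g021680, with the homolog WRKY35, a member of the WRKY family, had medians of 3.10, 1.12 and 2.80 RPKM over the 20 libraries of the early stage, 4dpi and 6dpi, with steps of -0.97 (SE 0.08, adjusted p = 5.1e-17) and 0.80 (SE 0.08, adjusted p = 3.3e-13). Solyc02g089830, with the homolog TCP1, a TCP family factor, had medians of 2.41, 0.676 and 2.79 RPKM and steps of -0.89 (SE 0.11, adjusted p = 4.7e-10) and 1.05 (SE 0.11, adjusted p = 1.1e-11). TCP1 is known in Arabidopsis as a relative of the genes that make snapdragon flowers asymmetric. The Solyc02g089830 values rest on 2 to 44 reads per library at 4dpi, and its libraries of 4dpi lay below all others in 1 of the 5 genotypes only.

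Solyc06g072360, whose homolog IDD14 is a zinc finger factor of the INDETERMINATE DOMAIN family, was more abundant. Over the 20 libraries it ran from 15.0 to 33.2 RPKM at the early stage (median 25.4), from 6.55 to 23.1 at 4dpi (median 8.87) and from 8.08 to 19.5 at 6dpi (median 16.2). The high 4dpi values were 23.1 RPKM in lc replicate 2 and 18.2 in HC2 replicate 3, against 12.8 or less in the others. It fell by 1.23 (SE 0.08, adjusted p = 1.1e-19), rose by 0.59 (SE 0.08, adjusted p = 3.8e-08) and ended lower than it began (-0.63, SE 0.08, adjusted p = 1.9e-09).

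Further homologs are a kinase of signalling molecules, a receptor-like kinase and a transporter. Solyc03g097150, homologous to the inositol phosphate kinase ITPK1, had medians of 2.06, 1.06 and 2.67 RPKM and steps of -0.62 (SE 0.06, adjusted p = 9.5e-13) and 0.93 (SE 0.06, adjusted p = 8.7e-19), and both were called in all 5 genotypes. Solyc09g091400, homologous to a leucine-rich repeat receptor-like kinase, kept a shallow course with medians of 11.7, 8.05 and 14.3 RPKM and steps of -0.49 (SE 0.07, adjusted p = 1.3e-08) and 0.76 (SE 0.07, adjusted p = 3.8e-14). Solyc01g103030, homologous to NPF4.3 of the nitrate and peptide transporter family, had medians of 2.27, 0.956 and 2.35 RPKM, and 6dpi against the early stage gave a difference of 0.02 (SE 0.09, adjusted p = 0.88). Both steps were called for these last 2 genes in 4 genotypes each.

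Solyc09g005070, whose Arabidopsis homolog is an aprataxin-like protein of DNA repair, was called lower at 4dpi in 4 genotypes and higher at 6dpi in none. It had 9.30, 16.3, 7.04 and 7.67 RPKM at the early stage in HC2, 1.19, 0.427, 1.34 and 0.633 at 4dpi and 0.458, 2.26, 1.13 and 0.623 at 6dpi. In WT it had 16.9, 13.3, 6.84 and 4.90 RPKM at the early stage, 0.792, 0.761, 1.17 and 0.997 at 4dpi and 2.06, 2.81, 2.02 and 2.19 at 6dpi. The first step averaged -1.65 (SE 0.13, adjusted p = 3.6e-17), and the second step of 0.28 was not called (SE 0.13, adjusted p = 0.086).

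Among genes without a homolog in the study's tables, the neighbours Solyc05g046020 and Solyc05g046030 were nearly silent at 4dpi. In HC2, Solyc05g046030 had 15.4, 14.7, 19.8 and 13.9 RPKM at the early stage, 0.286, 0.232, 0.341 and 0.758 at 4dpi and 4.26, 2.43, 8.06 and 3.73 at 6dpi. In fas it had 7.09, 6.65, 5.53 and 7.23 RPKM at the early stage, 1.20, 0, 1.57 and 1.46 at 4dpi and 5.65, 4.11, 7.50 and 7.33 at 6dpi. The 3 stages were separate in HC2, while early and 6dpi overlapped in fas. The averaged steps were -2.36 (SE 0.13, adjusted p = 7.6e-24) and 1.76 (SE 0.13, adjusted p = 1.6e-17). At 4dpi a library held 0 to 13 reads of Solyc05g046030 and 0 to 9 of Solyc05g046020, so depth limits how low these levels can be told.

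Solyc06g072480 had 5.78, 9.95, 6.49 and 8.50 RPKM at the early stage in lc, 0.825, 1.4, 1.67 and 1.41 at 4dpi and 7.79, 8.94, 15.6 and 10.5 at 6dpi. It fell by 1.46 over the 5 genotypes (SE 0.12, adjusted p = 5.3e-16), rose by 2.15 (SE 0.12, adjusted p = 1.9e-22) and missed a call only for the first step in RNAi-SlCLV3 (-0.66, SE 0.27, adjusted p = 0.084). Solyc04g080820 had medians of 8.20, 1.61 and 4.83 RPKM over the 20 libraries per stage, with steps of -1.84 (SE 0.12, adjusted p = 4e-20) and 1.05 (SE 0.12, adjusted p = 2.2e-10). Solyc06g084820 had medians of 1.55, 0.484 and 2.20 RPKM, with steps of -0.79 (SE 0.10, adjusted p = 2.2e-10) and 1.07 (SE 0.10, adjusted p = 3.4e-14).

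How fully the 48 genes returned was tested as 6dpi minus early, averaged over the 5 genotypes. At 6dpi 16 genes were lower than at the early stage, 13 were higher and 19 passed in neither direction. Over all tested genes 38.1% were lower and 26.9% higher, so the shares among the 48 were near the background. The median over the 48 genes was 0.00, with a range from -2.33 in Solyc02g070430 to 2.76 in Solyc04g079700. Solyc04g080640, which had the homolog AT5G66440, was the second lowest at -1.58 (SE 0.12, adjusted p = 2.4e-18), with medians of 19.3, 2.48 and 5.31 RPKM.

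Solyc04g079700, an unannotated gene singled out here after its values were seen, ended far above its early level. It had 2.31, 3.54, 1.58 and 1.79 RPKM at the early stage in HC2, 0.933, 0.568, 0.244 and 0.773 at 4dpi and 29.6, 49.2, 35.3 and 20 at 6dpi. Every 6dpi library of the 5 genotypes (10.6 to 49.2 RPKM) lay above every early library (0.953 to 7.43 RPKM). The second step averaged 3.53 (SE 0.16, adjusted p = 2e-26) and the first -0.77 (SE 0.16, adjusted p = 6e-05), with the first called in lc and HC2 only. Solyc09g091270, with the homolog AT5G47920, also rose to 6dpi, called in all 5 genotypes (average 1.55, SE 0.14, adjusted p = 3e-14), but its first step was 0.17 (SE 0.14, adjusted p = 0.30). Its early WT libraries held 5.38, 3.10, 18.3 and 6.61 RPKM, and the highest of them was the thinnest library. In RNAi-SlCLV3 its level at 4dpi was higher than at the early stage, with 5.62, 7.99, 4.3 and 4.09 RPKM against 4.42, 1.01, 3.08 and 0.48 (1.15, SE 0.31, adjusted p = 0.0042).

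**Figure D4:**
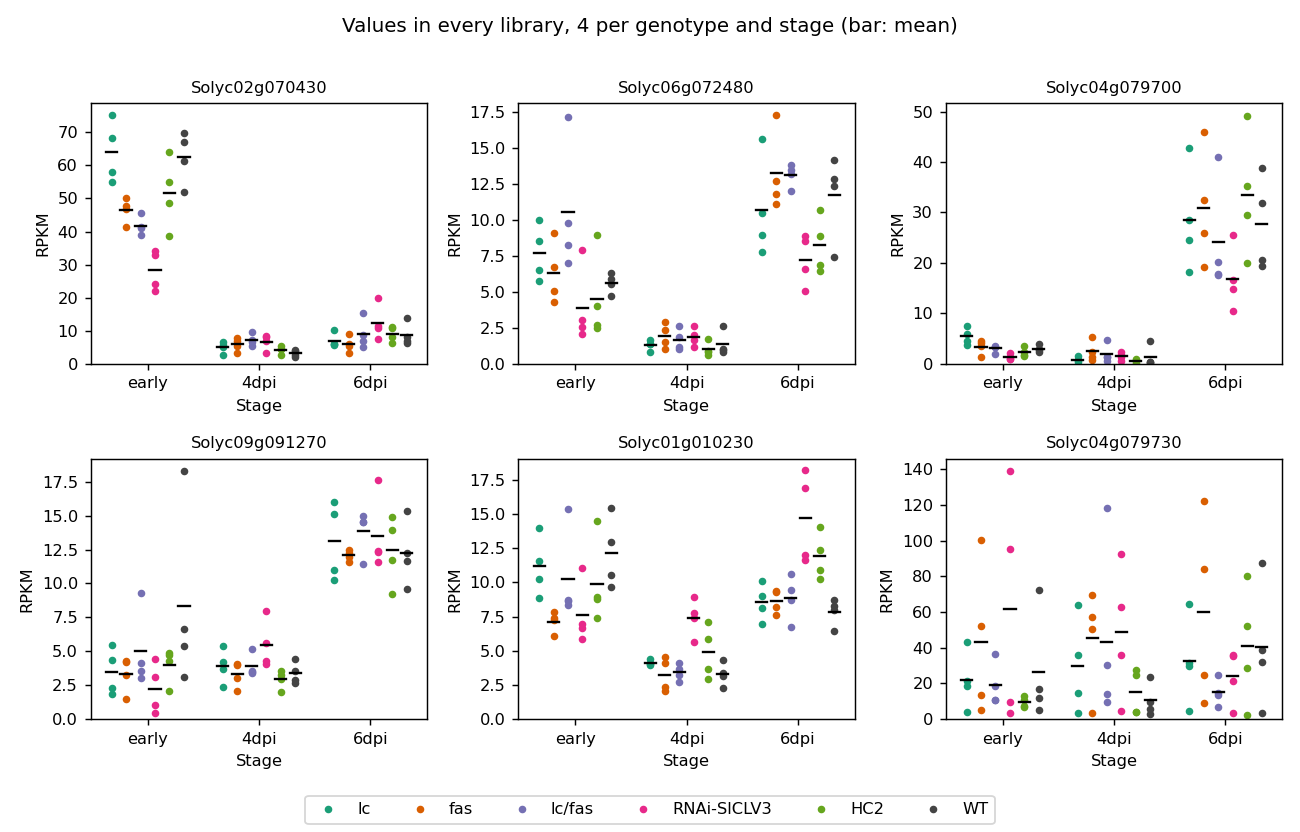
RPKM (y axis, from 0) of 6 genes in every library at the early stage, 4dpi and 6dpi (x axis), 4 points per genotype with the mean as a bar. Solyc02g070430 stayed low at 6dpi (3.29 to 20 RPKM in the 5 genotypes other than WT), Solyc04g079700 ended high, and Solyc04g079730 scattered from 2.3 to 139 RPKM with no shared course.

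For 15 genes no genotype gave a call in both steps, and for 3 of them no step was called in any of the 5 genotypes. Solyc04g079730 was the clearest of these. In RNAi-SlCLV3 it had 3.74, 9.65, 95.5 and 139 RPKM at the early stage, 4.45, 35.8, 62.7 and 92.3 at 4dpi and 3.63, 36.0, 35.7 and 21.1 at 6dpi. In WT it had 5.14, 16.9, 72.4 and 11.9 RPKM at the early stage, 3.13, 23.8, 5.53 and 9.72 at 4dpi and 3.72, 32.0, 87.3 and 38.6 at 6dpi. Libraries of replicate 1 were low at every stage in both genotypes, and the stages overlapped. The averaged steps were 0.29 (SE 0.48, adjusted p = 0.60) and 0.02 (SE 0.48, adjusted p = 0.98).

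Solyc02g067280 and Solyc12g010460 made up the 3. In Solyc02g067280 the medians were 6.39, 4.90 and 5.66 RPKM outside WT, with steps of -0.22 (SE 0.11, adjusted p = 0.071) and 0.17 (SE 0.11, adjusted p = 0.25). Solyc12g010460 had medians of 5.65, 4.78 and 7.08 RPKM, and its averaged steps of -0.28 (SE 0.12, adjusted p = 0.030) and 0.51 (SE 0.12, adjusted p = 0.0004) passed only over the 5 genotypes together. The genes just inside the threshold in WT differed too. Solyc10g076400 was called in both steps in 4 genotypes and Solyc01g067220 in none.

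RNAi-SlCLV3 was set against the mean of lc, fas and lc/fas, to ask whether its dip had another depth. The dip is 4dpi minus the mean of the early stage and 6dpi. No gene of the 48 passed (limma, 0 at an adjusted p below 0.05, 14 at an unadjusted p below 0.05), and 0.0437% of all tested genes did. The differences with the lowest p-values were 0.96 in Solyc06g072480 (SE 0.27, adjusted p = 0.49) and 0.68 in Solyc01g010230 (SE 0.20, adjusted p = 0.56). The difference was positive, that is a shallower dip in RNAi-SlCLV3, for 42 of the 48 genes, with a median of 0.25, against 0.04 over all genes. SlWUS held 12.8 to 16.6 RPKM at 4dpi in RNAi-SlCLV3. It held 3.52 to 13.4 in lc, 5.04 to 9.74 in fas and 7.68 to 10.8 in lc/fas. The paper reports that silencing itself went with higher SlWUS in the later buds. SlWUS is therefore no separate measure of remaining meristem tissue in this line. Over the 6 genes of the meristem list, SlWUS and SlCLV3 included, the difference in the dip had a median of 0.11, and 0 passed. The part of remaining meristem tissue in the difference of the 48 genes was not tested. The 48 genes were chosen on WT, and same-numbered libraries of WT and another genotype deviated together to unlike degrees. The mean correlation was 0.41 for lc, 0.44 for fas and 0.40 for lc/fas, but 0.29 for RNAi-SlCLV3 and 0.24 for HC2. How much of the difference came with this was not tested.

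Each step was also compared on its own, a choice made after these values were seen. In the first step the difference was positive for 40 of the 48 genes (median 0.32, against 0.03 over all genes), 1 gene passed and 0.224% of all genes did. In the second step it was negative for 36 (median -0.22, against -0.04 over all genes), and 0 passed (7 at an unadjusted p below 0.05), with 0.0194% of all genes passing. With the replicate block within genotype 3 genes passed in the first step, Solyc01g010230 (1.16, adjusted p = 0.0075), Solyc09g005070 (1.22, adjusted p = 0.048) and Solyc01g006720 (0.67, adjusted p = 0.0078), while 59 of all genes were lower and 48 higher (25 and 21 without the block). Under that block the adjusted p of Solyc01g010230 was 0.117 without replicate 2 and 0.147 without replicate 4.

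**Figure D5:**
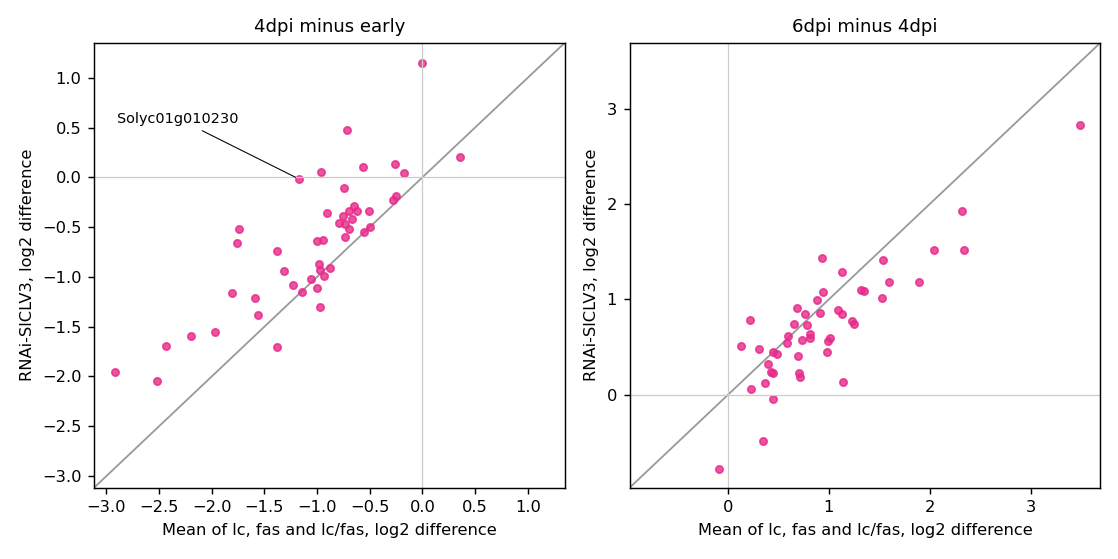
Each point is 1 of the 48 genes, with the step in RNAi-SlCLV3 (y axis) against the mean of lc, fas and lc/fas (x axis), as differences of mean log2(RPKM + 1), and the grey diagonal marks equal steps. In the left panel (4dpi minus early) 40 points lie above the diagonal, and Solyc01g010230 stands at -0.02 in RNAi-SlCLV3.

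Solyc01g010230 was the gene that passed. In RNAi-SlCLV3 it had 11.1, 5.88, 6.63 and 6.95 RPKM at the early stage, 7.36, 7.73, 5.66 and 8.91 at 4dpi and 11.6, 18.2, 12 and 16.9 at 6dpi. In lc it had 11.6, 14.0, 8.87 and 10.2 RPKM at the early stage, 3.93, 4.37, 4.12 and 4.04 at 4dpi and 8.11, 8.99, 6.96 and 10.1 at 6dpi. The early and 4dpi libraries overlapped in RNAi-SlCLV3 and were apart in lc. The first step was -0.02 in RNAi-SlCLV3 (SE 0.20), against -1.23 in lc, -0.98 in fas and -1.32 in lc/fas, a difference of 1.16 (SE 0.23, adjusted p = 0.0039). Without replicate 2 the difference was 1.03 (adjusted p = 0.222) and without replicate 4 it was 1.11 (adjusted p = 0.195).

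The return, 6dpi minus early, also differed in RNAi-SlCLV3 for 2 of the 48 genes, and for 0.476% of all genes. It exceeded that of lc, fas and lc/fas by 0.96 in Solyc01g010230 (SE 0.23, adjusted p = 0.027) and by 1.53 in Solyc02g070430 (SE 0.31, adjusted p = 0.0042). In Solyc02g070430, the GA2OX2 homolog, the 4 early libraries of RNAi-SlCLV3 held 21.9 to 34.0 RPKM, against 39.0 to 75.1 in lc, fas and lc/fas, so part of the difference lay at the early stage. For Solyc02g070430 it was 1.35 without replicate 1 (adjusted p = 0.087), 1.23 without replicate 3 (adjusted p = 0.348) and 1.31 without the 7 thin libraries (adjusted p = 0.0518). For Solyc01g010230 it was 0.71 without replicate 2 (adjusted p = 0.553), 1.01 without replicate 3 (adjusted p = 0.120), 0.95 without replicate 4 (adjusted p = 0.322). Adding 0.1 RPKM in place of 1 gave it 1.04 (adjusted p = 0.0502). With the replicate block within genotype Solyc02g067550 passed too (-1.04, SE 0.26, adjusted p = 0.024).

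HC2 was set against fas, the line it was made from, to ask whether the added copy of SlCLV3 went with another course. No gene of the 48 passed for the dip (limma, 0 at an adjusted p below 0.05, 4 at an unadjusted p below 0.05), and 0.00486% of all genes did. The difference was positive for 20 genes and negative for 28, with a median of -0.06, against -0.01 over all genes. Neither step alone gave a call among the 48 (2 and 1 genes at an unadjusted p below 0.05), with 0.0437% and 0.00972% of all genes passing.

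In the return, 1 of the 48 genes passed, against 0.112% of all genes. Solyc05g046020 had 7.35, 6.24, 7.73 and 6.97 RPKM in HC2 at the early stage, 0, 0, 0.245 and 0.545 at 4dpi and 2.19, 0.749, 2.44 and 0.767 at 6dpi. In fas it had 3.06, 2.56, 2.99 and 3.09 RPKM at the early stage, 0.345, 0, 0.693 and 1.05 at 4dpi and 2.84, 2.09, 3.29 and 4.39 at 6dpi. The early libraries were all higher in HC2, and those of 6dpi ranged lower. The return differed by -1.79 (SE 0.35, adjusted p = 0.0057), and by -2.37 at a pseudocount of 0.1 (adjusted p = 1). Without replicate 1 it was -1.96 (adjusted p = 0.147) and without replicate 4 it was -1.53 (adjusted p = 0.521). Its neighbour Solyc05g046030 differed by -1.56 (SE 0.41, adjusted p = 0.23).

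Some of the genes shared an order of replicates that the choice did not use. At 6dpi replicate 2 was the lowest of the 4 libraries in all 6 genotypes for 4 of the 48 genes, Solyc02g080200, Solyc02g080210, Solyc02g080220 and Solyc03g044200, and for 2.39% of all tested genes. The neighbours Solyc02g080200, Solyc02g080210 and Solyc02g080220 cannot be taken as fully separate measurements. The 4 therefore cannot be set against that share as separate genes. In Solyc02g080220 the 6dpi values of replicate 2 were 10 RPKM in lc, 13.5 in fas, 11.2 in lc/fas, 12.3 in RNAi-SlCLV3, 9.10 in HC2 and 10.9 in WT, where the other 3 replicates ran from 13.6 to 36.2. The part of the collection week in this was not tested.

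The other gene lists, written from textbook knowledge and the study, are given for context. Averaged over the 5 genotypes, 0 of the genes tested were called in both steps among 12 clock, 8 heat shock, 17 jasmonate and wound, 17 photosynthesis, 4 sterol, 7 mitotic, 6 meristem and 10 floral organ genes. With 6.78% of all genes called, a count of 0 is near the background for each list taken alone. The lists were not tested together. On the depth of the dip itself, 5 of 12 clock genes, 5 of 6 meristem genes and 5 of 17 jasmonate and wound genes were lower, against 30.6% of all genes and 43 of the 48. In the same measure 14 of 17 photosynthesis, 9 of 10 floral organ and 4 of 4 sterol genes were higher. So were 5 of 17 jasmonate and wound genes, and 2568 of all 20577 genes. A gene that keeps falling can also score as lower, and 4 of the 6 meristem genes fell further to 6dpi, with 0 rising. Solyc04g079730, on the jasmonate and wound list, was the only one of the 48 on any list.

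At 4dpi 42.1% of all genes were lower than at the early stage and 20.8% higher (8672 and 4278 genes, and 5454 and 5285 with median-of-ratios scaling). Beside this, 15 of 17 photosynthesis genes and 4 of 4 sterol genes were higher. Of the clock genes 4 of 12 were lower, of the mitotic genes 4 of 7, and of the jasmonate and wound genes 4 of 17 were lower and 6 higher. Of the heat shock genes 0 of 8 passed (limma).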

How the data were processed

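Strand-specific mRNA libraries of hand-dissected meristems and buds were sequenced by the authors as single-end reads of 50 bases, aligned with TopHat2 and Bowtie2 (versions not given in the sources used here) to ITAG2.3, an annotation release of cultivated tomato, counted on the sense strand and deposited as RPKM per gene. Reads per library were recovered from the steps of the deposited RPKM values (99.987% of 1086127 values under 500 reads whole within 0.01 reads) and used only for depth.

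Values were analysed as log2(RPKM + 1). The 20577 genes that reached 1 RPKM in 4 or more libraries were fitted in limma 3.58.1 (R 4.3.3, intensity trend) with 18 group means over 72 libraries. Tests were two-sided, Benjamini-Hochberg adjustment ran over all genes of a contrast, and calls were made at an adjusted p below 0.05. The fit was tested on simulated data with independent noise in each library. That test does not cover same-numbered libraries that deviate together. Tables and figures were made in Python 3.11.15 with pandas 2.3.3, numpy 2.4.6 and matplotlib 3.10.9.

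The genes, lists and contrasts were chosen with earlier results of these data known. Named genes are the 8 with the largest weaker WT step, the 8 called in the most genotypes, the 3 with no call in any, up to 12 annotated in the study's tables, those called in a difference in the dip (0), and the 2 on each side of the threshold. Genes named beyond these were chosen after their values were seen. Arabidopsis homologs are those of the study's tables, and roles are textbook knowledge of Arabidopsis. The identifiers matched no entry of the reference table, so no coordinates are given and chromosomes were read from the identifiers. 1 further gene that met the values is not reported here.

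Replicate numbers were tested as pairs. Residuals of same-numbered libraries of different stages correlated above 0.1 in 12 of 12 pairs in lc, fas, RNAi-SlCLV3, HC2 and WT and in 11 of 12 in lc/fas (mean 0.33). The mean of -0.11 for different numbers follows from centring each group on its mean and is no separate comparison. Same-numbered libraries of WT and another genotype at the same stage correlated at a mean of 0.24 to 0.44. Blocked values stand beside the counts and calls they move most. Alternatives were the pseudocount, filter, scaling, libraries in the fit, replicates and block. The differences in a single step or in the return, the order of replicates, the rule without libraries under 10 M reads, the fit without WT libraries and the block with a replicate left out were added after seeing the data.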

Additional observations from a re-analysis of the deposited data

Results flagged for a closer look

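The per-library values of 11 genes were screened in their 18 groups of 4 (198 groups), where chance puts 1 library far from the other 3 in about 1 of 20 groups. In lc, the library set apart was 6dpi replicate 2 for Solyc02g070430 (10.3 RPKM, others 5.61 to 6.06) and 4dpi replicate 2 for Solyc05g046030 (0.452, others 1.05 to 1.16). In lc/fas it was early replicate 1 for Solyc01g010230 (15.3, others 8.34 to 8.71) and, for Solyc09g091270, early replicate 1 (9.30, others 3.07 to 4.10), 4dpi replicate 1 (5.14, others 3.42 to 3.54) and 6dpi replicate 2 (11.5, others 14.5 to 15.0).

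In RNAi-SlCLV3 it was early replicate 2 for Solyc06g072480 (7.90 RPKM, others 2.10 to 3.02), 6dpi replicate 3, a library of 5.08 M reads, for Solyc05g046030 (1.94, others 4.58 to 5.09) and 6dpi replicate 2 for Solyc09g091270 (17.7, others 11.6 to 12.4). In HC2 it was 4dpi replicate 3 for Solyc02g080200 (3.55, others 2.18 to 2.33), and in WT 4dpi replicate 3 for Solyc06g072480 (2.63, others 0.818 to 1.02).

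Differences between genotypes in a stage step passed for 4 values. In RNAi-SlCLV3 against the mean of lc, fas and lc/fas, Solyc01g010230 differed in its first step (1.16) and in its return (0.96), and Solyc02g070430 in its return (1.53). In HC2 against fas, Solyc05g046020 differed in its return (-1.79). Each call was lost on leaving out at least 1 replicate number, with differences of the same sign.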

How the results depend on the processing

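The choice of the 48 genes moved with the settings. At a pseudocount of 0.1 the rule took 95 genes and at a step of 0.6 it took 80, each holding all 48. At a step of 0.8 and with quantile normalization it took 33 and with median-of-ratios scaling 41, each among the 48, and without 1 WT replicate it took 52 to 68, of which 35 to 43 were shared. With a filter at a mean of at least 5 RPKM, which removed 18 of the 48 genes, those called in both steps were 15 in lc, 18 in fas, 15 in lc/fas and 6 in RNAi-SlCLV3. In RNAi-SlCLV3 the count was 22 with the replicate block, 9 with the block within genotype and without replicate 1, and 4 to 11 when 1 replicate was left out. Over all genes these fits gave 86, 51 and 27 to 36 calls, against 48. Leaving out 1 replicate gave 20 to 26 genes in lc, 23 to 27 in fas, 18 to 23 in lc/fas, 23 to 28 in HC2 and 38 to 39 on average over the 5 genotypes. The filter leaves fewer genes and a left-out replicate fewer libraries, and for the other settings the cause was not tested. None of the 48 genes passed for a difference in the dip (RNAi-SlCLV3 against lc, fas and lc/fas, or HC2 against fas) under any alternative run. Of the single-gene values and smaller counts, 704 were kept under an alternative. A single-gene value was kept if direction and side of the threshold stayed, and a count if it stayed within a set ratio of the main count. Beyond that ratio 33 counts moved. Among the single-gene values 4 newly passed, 23 no longer passed and 0 turned round.

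Depth limits the genes at 0 to 23 reads per library at 4dpi (Solyc05g046020, Solyc05g046030, Solyc02g065570 and Solyc03g096100). The averaged dip of Solyc01g067220 lost its call without replicate 2 (-0.23, adjusted p = 0.11).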
